A study of Mus musculus with 4 samples.

Results

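A set of 40 genes of mitotic entry, the spindle, the kinetochore and the spindle checkpoint was examined in B16F10 cells, a metastatic mouse melanoma line derived from the C57BL/6 strain. The 40 were chosen by symbol, for their role in cell division, and each row of the count matrix with one of these symbols was taken. All 40 symbols were found among the 24421 symbols of that matrix, and all 40 had enough counts to be tested, among 9150 genes tested in all. The series has 4 bulk libraries, 2 from cells that carried a control vector (shControl 1 and 2) and 2 from cells that carried a short hairpin RNA against exon 8 of Lmna, which encodes the A-type lamins of the nuclear lamina (shLmna 1 and 2). Both vectors were delivered by lentivirus, and both populations were selected and kept in puromycin. The labels call the control a control shRNA, and the resource list of the study gives an empty vector. Any effect of carrying a hairpin, or of another difference between the 2 selected lines, cannot be told apart from an effect of less Lmna. RNA was measured by MARS-seq, which captures poly(A) tails, tags molecules with a barcode and counts the 3′ end of each transcript. The comparison bears on whether transcripts of dividing cells change when Lmna is lowered.

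Mitosis begins when cyclin B and cyclin A activate the kinase Cdk1, which polo-like and Aurora kinases help to switch on and to spread over chromosomes and spindle poles. Chromosomes are then held to spindle microtubules by kinetochores, and an unattached kinetochore recruits checkpoint proteins that hold Cdc20 inactive. Once all are attached, Cdc20 and later Fzr1 direct the anaphase-promoting complex to destroy cyclin B and securin, separase cuts cohesin, and cytokinesis divides the cell. Many of these genes are transcribed in late S phase and G2 under the B-MYB-MuvB and FOXM1 complexes and NF-Y, so that their messages follow the share of cells in G2 and mitosis. In a bulk library, fewer cells in these phases and less RNA in each such cell cannot be told apart.

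Library totals ranged from 2494880 to 3808843 counts, and the 40 genes took 0.539% to 0.565% of the counts in each library. Lmna itself was at 875 and 719 CPM, counts scaled to a library of common size with the TMM factors of edgeR, in shControl and at 131 CPM in each shLmna library. It fell by 2.61 on the log2 scale (SE 0.142, adjusted p = 7.93e-06 by the edgeR quasi-likelihood test with Benjamini-Hochberg adjustment over all tested genes), in the direction of the labels. Summed over 7 melanocytic markers the level was 20100 to 24600 CPM, with Tyr at 1 to 7 counts per library, and within that list Sox10 fell (log2 fold change -0.89) and Pmel and Mlana rose (0.41 and 0.51). In contrast, 6 fibroblast markers summed to 2.37 to 7.5 CPM with Dcn and Lum at 0, 6 leukocyte markers to at most 0.396 CPM and 4 endothelial markers to at most 1.34 CPM. No source says if the 2 libraries of each group were separate cultures, so each p-value measures the spread between these libraries only.

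Of the 40 transcripts, 5 fell and 35 did not pass the test. Bub1, Spc25, Nusap1, Mad2l1 and Fzr1 were lower in shLmna at an adjusted p under 0.05, which is 12.5% of the 40 against 9.74% of all tested genes. Of these, 4 (10%) also passed the further limits of the study for a call, a log2 fold change beyond 1 in size and a mean normalized count above 5, against 5.88% of all tested genes. None of the 40 rose at an adjusted p under 0.05 in edgeR, against 5.48% of all tested genes, and none was called higher, against 1.76%. At an unadjusted p under 0.05 there were 7 lower and 3 higher among the 40, against 1508 lower and 1242 higher of all 9150. DESeq2 gave 4 lower and 0 higher, against 589 (5.7%) lower and 218 higher of the 10329 genes it tested. In the deposited batch-corrected log2 values the differences were smaller, from -0.68 for Bub1 to -0.25 for Fzr1, and limma gave 7 lower, the 5 among them, and 6 higher at an adjusted p under 0.05, with 0 called lower. Over all 10417 genes tested there, 1988 (19.1%) were lower, 1793 higher and 27 called lower. With 1 library left out at a time, log2 fold changes ran from -9.08 to -4.65 for Bub1 and -1.56 to -1.34 for Spc25. They ran from -3.59 to -1.13 for Nusap1, -1.21 to -0.78 for Mad2l1 and -0.57 to -0.40 for Fzr1. Both shLmna libraries lay below both shControl libraries for 11 of the 40 (30.6% of all tested genes), above them for 9 (29.5% of all tested genes), and the groups overlapped for 20.

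The 40 log2 fold changes had a median of -0.03 with quartiles of -0.15 and 0.22, and the 9150 tested genes had a median of -0.0011 with quartiles of -0.30 and 0.27. Of the 40, 33 (82.5%) lay within 0.5 of 0 on the log2 scale, against 71.9% of all tested genes. The 95% interval of the fold change lay wholly within a 2-fold change in either direction for the same share of the 40, 82.5%, against 66% of all genes. Relative to the shControl mean, the median of the 40 was 0.01 and -0.01 in shControl 1 and 2, and -0.06 and 0.03 in shLmna 1 and 2. By this median the shLmna libraries fell on either side of the controls, whose values mirror each other by construction. The mean of the 40, which the deep falls weigh on, was -0.30 and -0.131 in shLmna 1 and 2. Over all tested genes that mean was -0.145 and -0.114. Without the 5 that fell, the median of the other 35 was 0.02. Because the 5 were left out for being lower, this median could not have gone down, and it does not test the rest. Counts were sufficient to bound most of these transcripts, but a p above the threshold does not show that levels were equal.

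**Figure D1:**
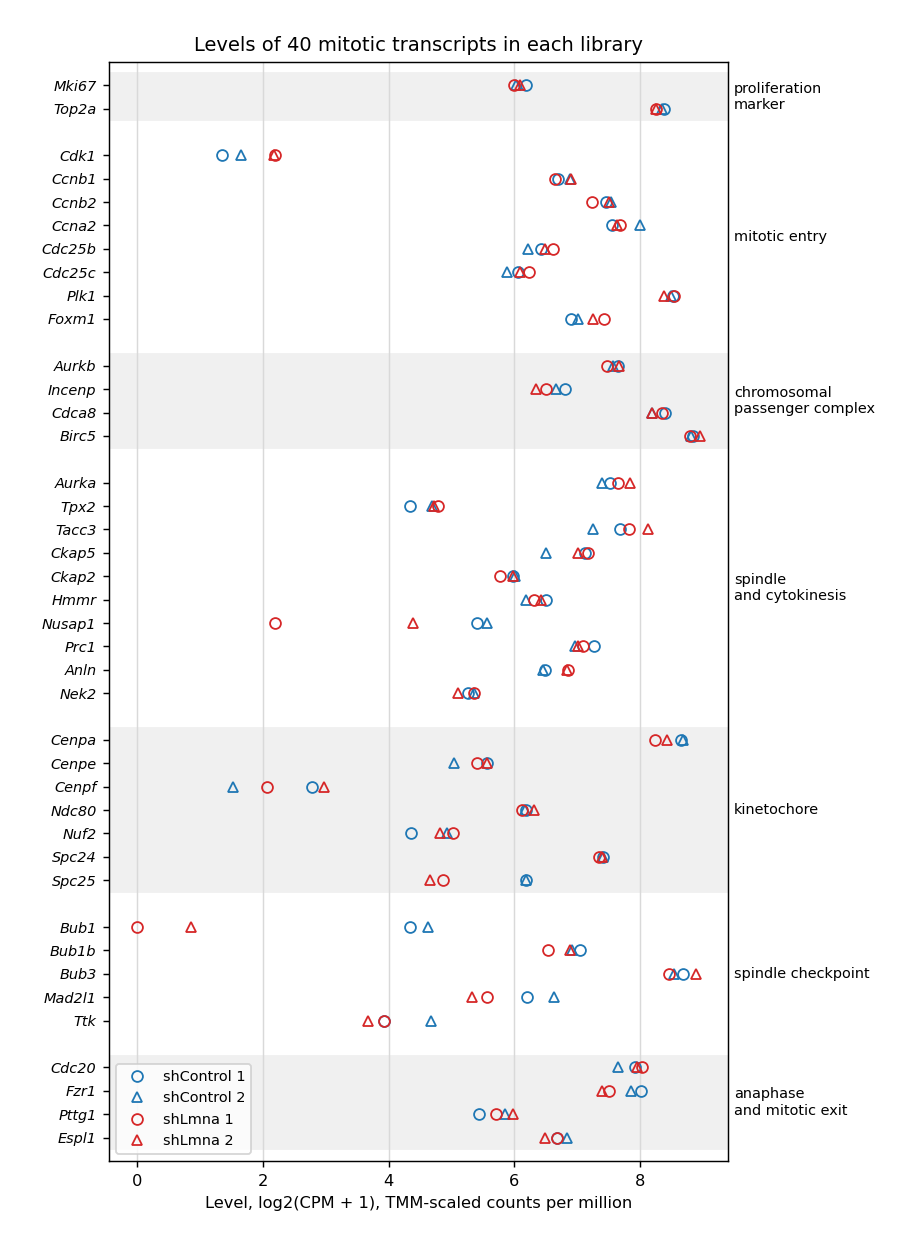
Level of each of the 40 transcripts in each library, as log2(CPM + 1), with genes grouped by role from top to bottom and circles and triangles for libraries 1 and 2 of shControl (blue) and shLmna (red). The 4 symbols lie close together for most genes, whereas the red symbols stand apart to the left for Bub1, Nusap1, Spc25 and Mad2l1.

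**Figure D2:**
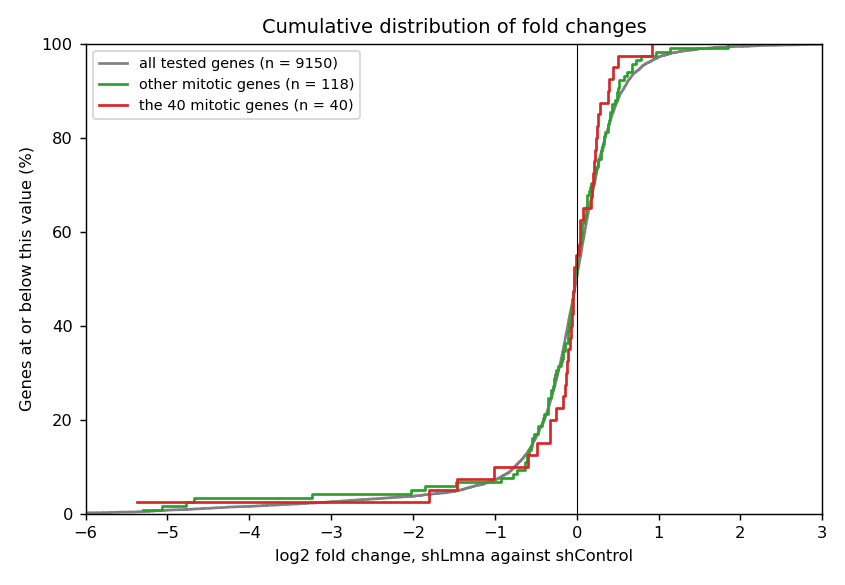
Cumulative percentage of genes against log2 fold change of shLmna over shControl, for the 40 mitotic genes (red), 118 other mitotic genes (green) and all 9150 tested genes (grey). All curves cross near 0, with medians of -0.03, -0.03 and -0.0011.

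Promoter sequence is shown for 4 of the transcripts that fell and for Cdc20 and Ccnb1, whose transcripts did not pass the test, because cell cycle genes of this class are known for a pair of short elements near the start site. The CHR, bound by MuvB complexes, was searched as TTTGAA, its reverse complement TTCAAA, or TTCGAA. The CCAAT box, bound by NF-Y, was searched as CCAAT or its reverse complement ATTGG. Both strands were covered in this way, and matches that overlap were each kept. Other forms of these elements were not searched, so absence below means only that none of these strings was found. RefSeq windows of 300 bases (250 before and 50 after the annotated start, build GRCm38.p6) were matched for 33 of the 40 genes, giving 35 windows. A CHR was present in 71.4% of these windows against 19.2% of all 32851 windows, a CCAAT box in 77.1% against 37.4%, and both in 65.7% against 7.52%. Neither was present in 17.1% of the 35 windows and in 50.9% of all windows. The 100 bases just before the start are printed 5′ to 3′ on the transcribed strand, with any CHR or CCAAT box in capitals.
Bub1, chr2:127831860-127831959, minus strand: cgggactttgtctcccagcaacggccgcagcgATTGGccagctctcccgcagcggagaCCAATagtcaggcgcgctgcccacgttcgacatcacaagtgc
Mad2l1, chr6:66535121-66535220, plus strand: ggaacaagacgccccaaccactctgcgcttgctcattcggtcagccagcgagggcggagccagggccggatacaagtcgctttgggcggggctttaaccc
Spc25, chr2:69206214-69206313, minus strand: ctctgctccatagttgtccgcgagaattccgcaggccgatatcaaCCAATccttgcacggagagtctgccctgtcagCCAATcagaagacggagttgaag
Nusap1, chr2:119618198-119618297, plus strand: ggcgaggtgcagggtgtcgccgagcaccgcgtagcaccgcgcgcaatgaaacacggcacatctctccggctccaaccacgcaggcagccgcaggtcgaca
Cdc20, chr4:118437344-118437443, minus strand: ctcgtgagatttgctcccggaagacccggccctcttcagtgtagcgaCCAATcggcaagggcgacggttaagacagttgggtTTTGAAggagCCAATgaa
Ccnb1, chr13:100786487-100786586, minus strand: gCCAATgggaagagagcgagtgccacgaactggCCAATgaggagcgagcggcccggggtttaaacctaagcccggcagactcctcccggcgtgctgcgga
Bub1 and Spc25 each had 2 CCAAT boxes in this stretch and a CHR just after the start, at positions 15 and 25, where the first base of the element is counted from the start. Cdc20 had 2 CCAAT boxes and a CHR at position -18, and Ccnb1 had 2 CCAAT boxes and no CHR of the forms searched in its 300-base window. The stretches of Mad2l1 and Nusap1 held neither motif. Absence depends on the RefSeq start used. The GENCODE annotation begins Mad2l1 at base 66535390, past its 300-base window, which ends at 66535270. It begins Ccnb1 at base 100786570, within the printed stretch. Among the 5 genes that fell, 2 windows had both elements and 2 had neither, and among the 28 other genes with a window, 19 had both and 4 had neither. With so few genes that fell, these shares describe the windows only, and a letter match is not a bound site.

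The spindle checkpoint held the deepest fall. Of its 5 genes, 2 fell (40%, against 9.74% of all tested genes), Bub1 and Mad2l1. The median of the 5 was -0.59 on the log2 scale, the lowest of the 7 roles. Their counted 3′ ends also had the lowest median GC content of the 7 roles, 39.9%, and its part in these falls was not tested. Both shLmna libraries lay below both controls for 4 of the 5 (30.6% of all tested genes), though for Ttk shControl 1 and shLmna 1 were equal at 14.2 CPM as rounded, and Bub3 was the exception. Bub1, a kinase that is among the first checkpoint proteins to load on unattached kinetochores, was counted 62 and 88 times in the controls and 0 and 3 times in shLmna 1 and 2. Scaled to CPM this was 19.2 and 23.6 against 0 and 0.817. The message was close to the limit of detection in both shLmna libraries and clearly present in both controls. Summed over libraries, 150 counts stood against 3, a ratio scaled for depth of 44.5-fold lower in shLmna, with a 95% counting interval of 14.9 to 218 that covers counting error only. The fitted log2 fold change was -5.37 (SE 0.534, 95% interval -6.57 to -4.18, adjusted p = 0.000159), and its size depends on the small count added to such low values, being -9.08 without shLmna 2, where the one value left is 0.

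Mad2l1 encodes Mad2, which binds Cdc20 in the mitotic checkpoint complex and blocks anaphase. It had 72.5 and 98.3 CPM in shControl and 46.3 and 39.0 CPM in shLmna, or 85.37 ± 18.2 against 42.62 ± 5.17 CPM (SD, n = 2). The control libraries differed more from each other than the shLmna libraries did, and no shLmna value reached the lower control. The log2 fold change was -1.01 (SE 0.185, 95% interval -1.43 to -0.60, adjusted p = 0.00576). Mad2l1 lay at the limit of a 2-fold change, and without shLmna 2 its adjusted p was 0.0986 with a log2 fold change of -0.87.

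The other checkpoint genes did not pass the test. Ttk, the kinase Mps1 that starts checkpoint signalling, was at 14.2 and 24.4 CPM in shControl and 14.2 and 11.7 CPM in shLmna, with a log2 fold change of -0.59 and a wide interval of -1.26 to 0.08. Bub1b, which encodes BubR1, a subunit of the mitotic checkpoint complex, was at 131 and 120 against 92.2 and 118 CPM, a log2 fold change of -0.25 (95% interval -0.58 to 0.08). Bub3, the partner that carries Bub1 and BubR1 to kinetochores, was at 409 and 373 against 351 and 472 CPM, a log2 fold change of 0.07 (95% interval -0.27 to 0.42).

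In the kinetochore, 1 of 7 genes fell, and it was a single subunit of a complex of 4. Spc25, which with Ndc80, Nuf2 and Spc24 forms the NDC80 complex that grips the ends of microtubules, was at 72.2 and 71.8 CPM in shControl and at 28.1 and 24.2 CPM in shLmna. Replicates agreed closely in both groups, and the means were 71.96 ± 0.295 and 26.17 ± 2.71 CPM (SD, n = 2). The log2 fold change was -1.47 (SE 0.165, 95% interval -1.84 to -1.10, adjusted p = 0.000351), a level 63.6% lower. Ndc80 was at 72.2 and 70.9 CPM in shControl and 68.8 and 78.2 CPM in shLmna, with a log2 fold change of 0.04 (95% interval -0.27 to 0.36). Nuf2 was at 19.5 and 29.5 against 31.6 and 27.2 CPM, with 0.25 (95% interval -0.29 to 0.80), and Spc24 at 170 and 170 against 162 and 168 CPM, with -0.04 (95% interval -0.30 to 0.22). The interval of Spc25 met none of the intervals of its 3 partners, although the difference between subunits was not itself tested. Of the 31-base stretches of Spc24, 17.8% also occur in other annotated genes, and 15.8% of those of Ndc80 do, so reads of these 2 may in part have been split or dropped in counting, and none of the stretches of Spc25 do.

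Cenpa, the histone H3 variant that marks the centromere, was at 400 and 409 CPM in shControl and 301 and 343 CPM in shLmna. Both shLmna libraries were lower, by a mean of 20.3%, but the change of -0.33 on the log2 scale (95% interval -0.60 to -0.05) had an adjusted p of 0.110. Cenpe, a kinesin that helps chromosomes to align, had a log2 fold change of 0.18 and mean levels of 39.16 and 43.92 CPM in shControl and shLmna. Cenpf, a farnesylated protein of the outer kinetochore and nuclear envelope, was counted only 19 and 7 times in the controls and 8 and 25 times with the hairpin. Its interval of -0.83 to 1.73 on the log2 scale includes a 2-fold rise, and the libraries of each group differed widely.

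Among the genes of the spindle and cytokinesis, 1 of 10 fell and the median was 0.12. Nusap1, which binds and bundles spindle microtubules around chromosomes, was at 41.2 and 46.3 CPM in shControl and at 3.56 and 19.9 CPM in shLmna. Raw counts were 133 and 173 against 9 and 73, so the shLmna libraries differed from each other, also after scaling for depth. Both still lay below both controls, and the log2 fold change was -1.80 (SE 0.461, 95% interval -2.83 to -0.77, adjusted p = 0.0274). The size of the fall rested on which shLmna library was used, being -3.59 without shLmna 2 and -1.13 without shLmna 1. DESeq2 gave -1.89 with an adjusted p of 0.384.

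The remaining 9 genes of this group did not pass the test, and 6 of the 10 had positive fold changes. Tacc3, which with Ckap5 stabilises kinetochore fibres, was at 205 and 152 CPM in shControl and 225 and 280 CPM in shLmna, with a log2 fold change of 0.50 (95% interval 0.13 to 0.88, adjusted p = 0.0741). Anln, which encodes the contractile ring scaffold anillin, was at 88.6 and 87.0 against 115 and 114 CPM, with 0.38 (95% interval 0.10 to 0.66, adjusted p = 0.0725). Aurka, the kinase of spindle poles, was at 184 and 167 against 199 and 228 CPM, with 0.28 (adjusted p = 0.174). These 3 transcripts and Tpx2, 4 of the 10, were higher in both shLmna libraries than in either control, against 29.5% of all tested genes. None of the 4 passed the adjusted threshold. The other values were 0.23 for Tpx2, which activates Aurora A on the spindle, 0.26 for the microtubule polymerase gene Ckap5, 0.02 for Hmmr, a spindle pole protein also known as a hyaluronan receptor, -0.12 for the spindle protein gene Ckap2, -0.08 for Prc1, which bundles the central spindle, and -0.08 for Nek2, the kinase that splits centrosomes.

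Of the 4 genes of anaphase and mitotic exit, Fzr1 fell. Fzr1 encodes Cdh1, the activator that keeps the anaphase-promoting complex working from late mitosis through G1. It was at 259 and 232 CPM in shControl and 182 and 168 CPM in shLmna, 28.7% lower, with a log2 fold change of -0.49 (SE 0.125, 95% interval -0.77 to -0.21, adjusted p = 0.0270). The groups were well apart, but the change was too small for a call, and the adjusted p was 0.123 without shLmna 1 and 0.229 without shLmna 2. Cdc20, the other activator, was at 241 and 199 against 262 and 247 CPM, a log2 fold change of 0.21 (95% interval -0.09 to 0.51, adjusted p = 0.328). Of the 31-base stretches of Cdc20, 35.1% occur in other annotated genes, so its level is uncertain. Such stretches made up 11.8% to 21.9% of Foxm1, Mki67, Cenpf, Plk1, Birc5 and Cenpe. Pttg1, the gene of securin, had a log2 fold change of 0.19 and Espl1, the gene of separase, one of -0.17, with intervals of -0.22 to 0.61 and -0.48 to 0.13.

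**Figure D3:**
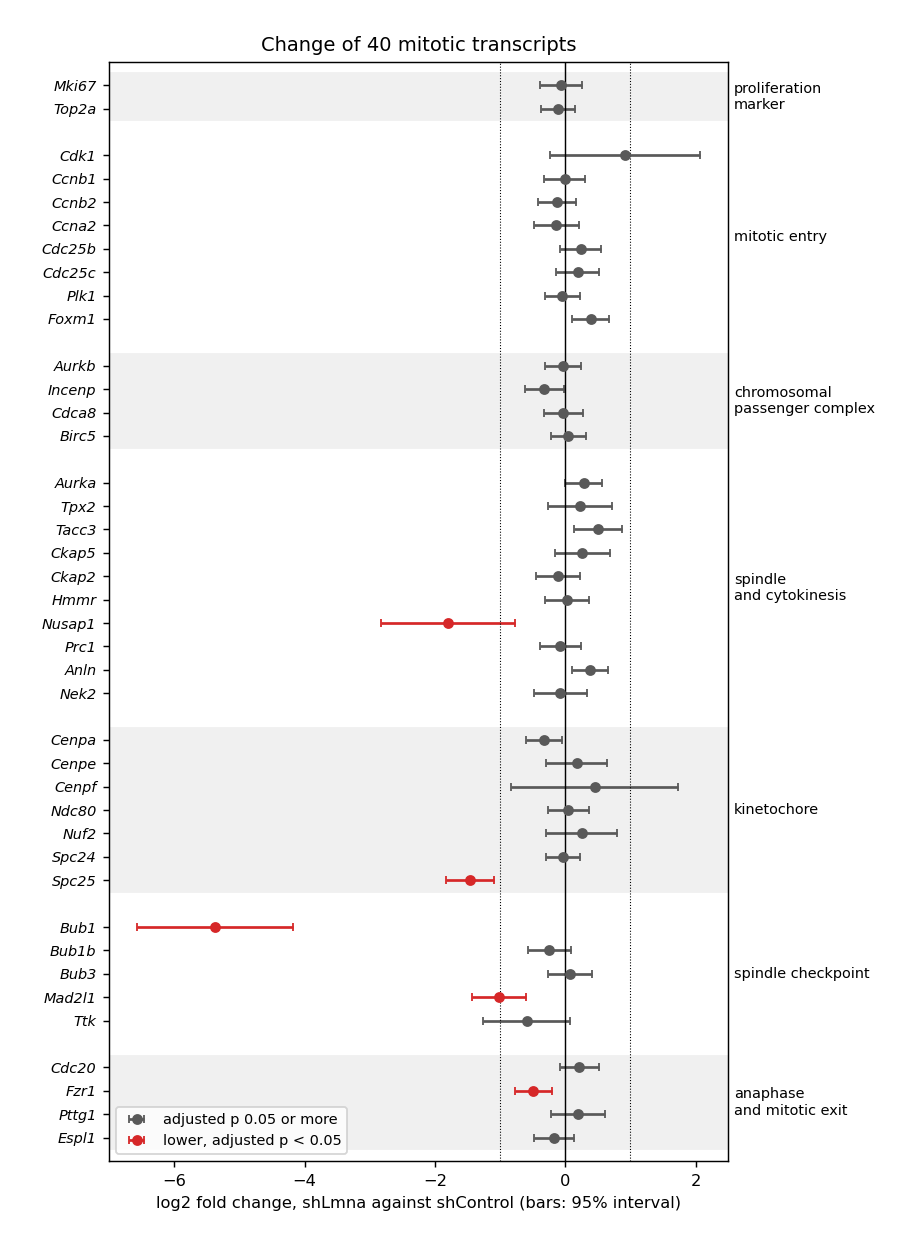
Fold change of shLmna against shControl on the log2 scale for each of the 40 transcripts, with 95% intervals from the edgeR fit, dotted lines at a 2-fold change, and red for an adjusted p under 0.05. Of the 40 points, 33 lie within 0.5 of 0, and Bub1 at -5.37 lies farthest out.

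Neither of the proliferation markers Mki67 and Top2a passed the test. Mki67, which encodes the Ki-67 antigen found on chromosomes of cycling cells, was at 72.2 and 64.3 CPM in shControl and 62.9 and 67.3 CPM in shLmna. The log2 fold change of -0.06 had a 95% interval of -0.39 to 0.26 and an adjusted p of 0.815. Top2a, the topoisomerase that untangles sister chromatids, was at 333 and 324 against 303 and 306 CPM, a log2 fold change of -0.11 (95% interval -0.37 to 0.15, adjusted p = 0.577). Both Top2a values in shLmna were under both controls, by a mean of 7.33%. The intervals of both genes lay well inside a 2-fold change in either direction.

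None of the 8 genes of mitotic entry passed the test, with a median of 0.09. Ccnb1, the gene of cyclin B1, was at 103 and 118 CPM in shControl and 99.3 and 119 CPM in shLmna, a log2 fold change of -0.01 (95% interval -0.33 to 0.31, adjusted p = 0.972). Plk1, the polo-like kinase of mitotic entry and spindle assembly, was at 366 and 360 against 372 and 332 CPM, with -0.04 (95% interval -0.32 to 0.23). The libraries of the 2 groups overlapped for both genes. Foxm1, a transcription factor of the G2 programme, was at 119 and 128 CPM in shControl and 172 and 152 CPM in shLmna, both higher, with a log2 fold change of 0.39 (95% interval 0.11 to 0.67) and an adjusted p of 0.0696 in edgeR. Its adjusted p was 0.045 without the filter on low counts and 0.0206 in the batch-corrected values, so passing the adjusted threshold depended on the setting. Ccnb2, Ccna2, Cdc25b and Cdc25c, which encode 2 further cyclins and the phosphatases that activate Cdk1, had log2 fold changes of -0.13, -0.14, 0.24 and 0.19.

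Cdk1, the kinase at the centre of this group, was counted only 5 and 8 times in the controls and 9 and 13 times with the hairpin. Its level was 1.55 and 2.14 against 3.56 and 3.54 CPM, so both shLmna libraries were higher. Only reads at the annotated 3′ end were counted, so this level need not be that of the whole message. The log2 fold change of 0.92 had an interval of -0.23 to 2.07 and an adjusted p of 0.267, so neither a 2-fold rise nor a level equal to the controls lay outside it.

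The chromosomal passenger complex, which corrects faulty attachments and later guides cytokinesis, showed no gene past the threshold among its 4. Aurkb, its kinase, was at 201 and 189 CPM in shControl and 178 and 202 CPM in shLmna, a log2 fold change of -0.03 (95% interval -0.31 to 0.24, adjusted p = 0.893). Birc5, which encodes survivin, was at 461 and 451 against 445 and 495 CPM, with 0.04 (95% interval -0.22 to 0.31, adjusted p = 0.848). For both genes the libraries of the groups overlapped. Incenp, the scaffold, was lower in both shLmna libraries, at 89.4 and 80.1 CPM against 111 and 100, but its log2 fold change of -0.32 had an adjusted p of 0.145. Cdca8, the gene of borealin, had a log2 fold change of -0.03.

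Base composition of the counted 3′ end moved with the fall. GC content was taken over the last 1000 transcript bases. Of 2605 tested genes at or under 42% GC, 19.3% were lower at an adjusted p under 0.05, against 5.88% of the 6495 genes above that limit. Of the 40 mitotic genes, 12 were at or under 42% and 4 of them fell, and 28 were above and 1 of them fell. The GC content was 37.5% for Bub1, 37.5% for Mad2l1, 39.7% for Spc25, 40.7% for Nusap1 and 56.6% for Fzr1, with a median of 45.6% over the 40 and 46.9% over all tested genes. When the GC trend of each library was removed within the fit, all 5 genes stayed past the threshold, with log2 fold changes of -5.39, -1.03, -1.55, -1.89 and -0.42 in the same order. Only the central trend is removed in this way. Over all genes the median log2 fold change was -0.09 at 36% to 38% GC, where 23.3% were lower. It was 0.04 at 38% to 40% and 0.07 at 40% to 42%. Shifts so small could hardly undo the falls of Bub1, Mad2l1, Spc25 and Nusap1, so this result does not test them. With that correction Cenpa was also lower, at -0.41 with an adjusted p of 0.0486, and Anln was higher at an adjusted p under 0.05. The other 8 genes at or under 42% did not pass the test, among them Ccnb1 at 36.7% and Anln at 35.9%. The part of base composition in the falls was not tested.

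**Figure D4:**
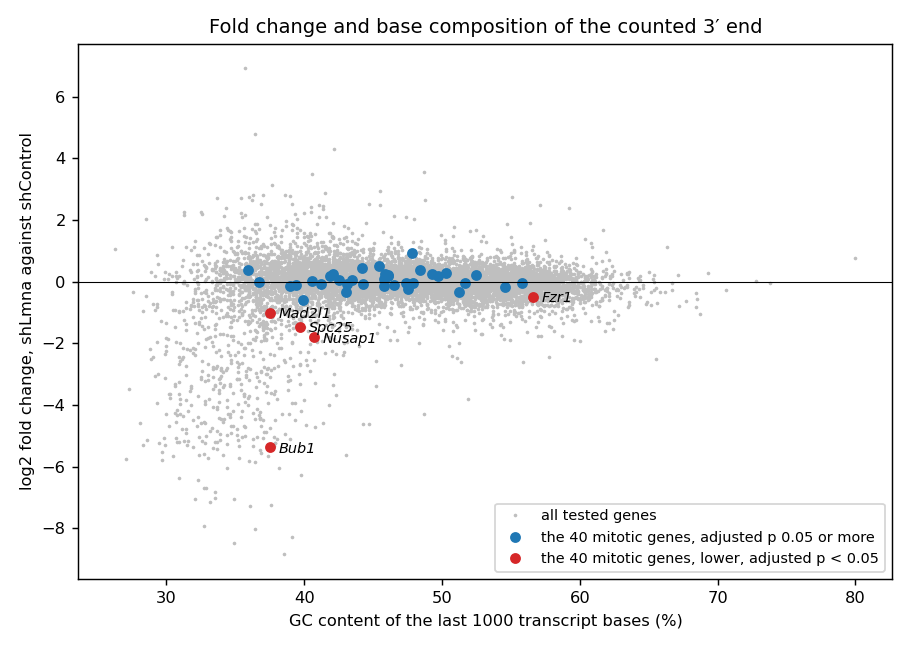
Log2 fold change against the GC content of the last 1000 transcript bases for all tested genes (grey) and for the 40 mitotic genes (blue, or red where lower at an adjusted p under 0.05). Grey points spread far below 0 at low GC content, where 4 of the 5 red points lie, and Fzr1 lies at 56.6%.

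A further 126 genes of mitosis, in 5 lists drawn up by role, placed these results in the wider pathway. Of these, 118 were tested, 14 (11.9%) were lower and 8 (6.78%) higher at an adjusted p under 0.05, and 8 (6.78%) were called lower and 2 called higher. The same limits gave 9.74%, 5.48%, 5.88% and 1.76% of all tested genes, and the median log2 fold change of the 118 was -0.03. With DESeq2 the counts were 9 lower and 1 higher, against 589 (5.7%) lower and 218 higher of the 10329 genes it tested. Counts were also smaller without either shLmna library, as were those over all genes. The one left higher in DESeq2 was Mapre1, so the other 7 genes given as higher were not past the threshold there, and none of the 8 was without shLmna 2. As for the 40, a few transcripts lay far below the rest and the bulk lay near 0. Genes named in this section that passed the adjusted threshold without a call were chosen after their values were seen.

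Cytokinesis genes Ect2 and Cep55 were nearly lost or strongly lower. Ect2, the exchange factor that activates RhoA at the cell equator, was counted 148 and 218 times in the controls and 4 and 4 times in the shLmna libraries, or 52.1 ± 8.86 against 1.336 ± 0.348 CPM (SD, n = 2), which is -5.29 on the log2 scale (SE 0.330, adjusted p = 1.08e-05). Cep55, the midbody protein that brings in the abscission machinery, had 197 and 218 against 18 and 21 counts, with -3.23 (SE 0.224, adjusted p = 2.05e-05). Rhoa itself was lower, at 178 and 206 CPM against 289 and 308 CPM, a log2 fold change of -0.63 (adjusted p = 0.00966). Of 41 tested genes of this list, 6 fell, the other 3 being Aspm, Haus5 and Gtse1, and 1 rose. The one that rose was Mapre1, the gene of the microtubule end-binding protein EB1, at 47.1 and 44.4 CPM in shLmna against 25.7 and 16.1 CPM in shControl (log2 fold change 1.14, adjusted p = 0.0106, and 0.0734 without shLmna 1 and 0.088 without shLmna 2). Ect2 had the lowest GC content of the 118, 29.9%, and its log2 fold change was -3.50 with the GC trend removed.

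Centromere proteins outside the NDC80 complex gave 4 lower and 2 higher among 34 tested. Cenpw, an inner kinetochore histone-fold protein, had 33 and 51 against 0 and 2 counts, a depth-scaled ratio of 37.4-fold lower with a 95% counting interval of 10 to 314 (adjusted p = 0.000686). Its GC content was 30.7%, and its fitted log2 fold change went from -5.07 to -3.68 with the GC trend removed. Cenpk, of the same inner kinetochore, had 27 and 33 against 4 and 9 counts (log2 fold change -2.03, adjusted p = 0.0101). Its adjusted p was 0.127 in DESeq2, 0.0996 without shLmna 1 and 0.0782 without shLmna 2. Dsn1, a subunit of the MIS12 complex that anchors NDC80, was lower by 41.7%, and Cenpq and Ska2 were higher, with log2 fold changes of 0.72 and 0.68.

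Other mitotic kinases and phosphatase regulators gave 1 lower and 3 higher among 20 tested, and these 4 act on Cdk1 or on the phosphatase that opposes it. Wee1, the kinase that holds Cdk1 inactive, was at 26.6 and 27.0 CPM in shControl and 6.72 and 12.0 CPM in shLmna (log2 fold change -1.48, adjusted p = 0.00731). Cdc25a, the phosphatase that removes the mark set by Wee1, was at 116 and 108 CPM in shControl and 153 and 163 CPM in shLmna (0.49, adjusted p = 0.0251). Ensa and Arpp19, related inhibitors of the phosphatase PP2A in mitosis, were higher, Ensa with 0.51 (adjusted p = 0.0234) and Arpp19, on 3 and 8 against 13 and 23 counts, with 1.85 (adjusted p = 0.0381). The adjusted p of Arpp19 was 0.339 in DESeq2, 0.108 without shControl 1, 0.163 without shLmna 1 and 0.298 without shLmna 2, and Cdc25a and Ensa likewise missed the threshold in DESeq2 and without shLmna 2.

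Subunits and regulators of the anaphase-promoting complex gave 2 lower and 2 higher among 14 tested. Cdc27, a scaffold subunit, was at 35.0 and 50.1 CPM in shControl and 5.14 and 17.2 CPM in shLmna (log2 fold change -1.86, adjusted p = 0.0121), with shLmna 1 again the lower of the pair and a log2 fold change of -3.03 without shLmna 2. Fbxo5, the gene of the inhibitor Emi1, was lower by 34.4%, and the subunits Anapc1 and Anapc4 were higher, with 0.78 and 0.49. Of the 9 subunits of B-MYB-MuvB and NF-Y, Lin54, the MuvB subunit that contacts the CHR, fell from 44 and 54 counts to 0 and 3, a depth-scaled ratio of 29.1-fold lower with a 95% counting interval of 9.66 to 143 (adjusted p = 0.000551). Its GC content was 31.4%, and its fitted log2 fold change went from -4.77 to -3.65 with the GC trend removed. The other 8 did not pass the test, and the median of the 9 was -0.29.

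**Figure D5:**
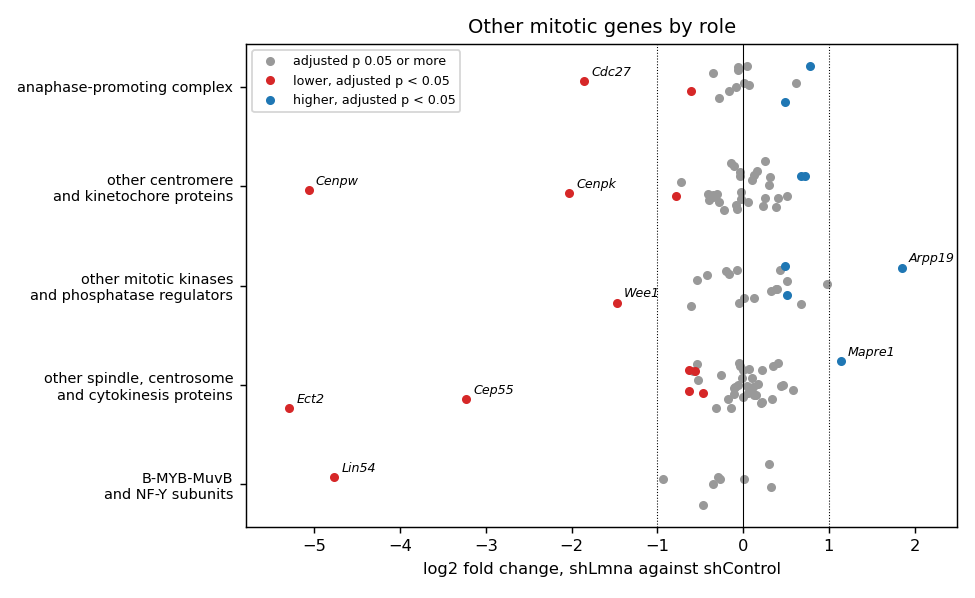
Log2 fold change of shLmna against shControl for the other mitotic genes that were tested, except 1 not reported here, in 5 lists by role, with dotted lines at a 2-fold change and with red and blue for lower and higher at an adjusted p under 0.05. The named points are the called genes described in the text, with Ect2 at -5.29 and Arpp19 at 1.85 farthest out.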

How the data were processed

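The series holds 2 shControl and 2 shLmna libraries of B16F10 cells, profiled by bulk MARS-seq. According to the methods of the study, reads were processed by the authors with the UTAP pipeline, in which they were trimmed with Cutadapt, mapped on mm10 with STAR (version 2.4.2a per the submitters' processing notes) and, with HTSeq, given to RefSeq genes where they fell in the 3′ terminal 1000 bases or just beyond. The authors deposited raw counts per gene symbol, which were the input of every main test. The methods describe molecule counting once duplicates were marked, and no source says whether this matrix was made before or after that step. Another deposited table gave a signal, the count divided by a size factor. Its values were whole multiples of 1 step per library in 100% of cases (tolerance 0.05), so the counts behind it were recovered, and the matrix exceeded them by 1.08 to 1.09 times. A further deposited table held log2 values corrected by the authors for batches that are not named. Columns of the authors' own p-values, adjusted p-values and directions were not used, and 0 columns belonged to other samples.

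Differential expression was tested with the two-sided quasi-likelihood test (edgeR 4.0.16, R 4.3.3) using TMM factors, filterByExpr defaults and group as the only term, and adjusted by the Benjamini-Hochberg method over 9150 genes. A gene was called at an adjusted p under 0.05, a log2 fold change beyond 1 and a mean normalized count above 5, the limits of the study. Alternatives used DESeq2 1.42.0, and limma 3.58.1 for the log2 values. The scripts were tested on simulated data. Replicates differed by more than sampling noise, with a chi-square per degree of freedom of 6.96 between the controls (10085 genes) and 3.91 between the shLmna libraries (9542 genes), and were counted as separate samples. GC content and 31-base stretches shared with other genes were computed from GENCODE vM21 transcripts (GRCm38), which matched 24019 of 24421 symbols (98.4%).

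The 40 genes, the other lists and the tests were chosen with earlier results of these data known, so no p-value was adjusted over a list alone and no set test was run. Genes named with full values were Lmna, every one of the 40 with an adjusted p under 0.05, Birc5, 10 genes fixed to represent the roles, and up to 4 called genes of each further list. Others are given by level and fold change, and Tacc3, Anln, Aurka, Incenp and the partners of Bub1 and Spc25 were described more fully after their values were seen. A called gene of the centromere list is not reported here, although it is included in the counts.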

Additional observations from a re-analysis of the deposited data

How the results depend on the processing

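Lmna (log2 fold change -2.74 to -1.54), Bub1 and Spc25 were lower at an adjusted p under 0.05 in all 12 alternatives. Leaving out 1 library gave 3 to 6 lower and 0 to 2 higher among the 40 and a median of -0.070 to 0.031, where the lone library of a group is assumed to vary like the other group. Among the 118 other mitotic genes it gave 7 to 20 lower, 0 to 11 higher and 0 to 2 called higher. Ranges over these omissions included 0 for Ccnb1 (-0.14 to 0.11), Mki67 (-0.15 to 0.025), Aurkb (-0.12 to 0.059), Birc5 (-0.021 to 0.12) and Plk1 (-0.12 to 0.050). Ccnb1 turned to 0.021 with library totals, and with the GC trend removed Ccnb1 turned to 0.0059, Plk1 to 0.0058 and Birc5 to -0.035.

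Higher genes among the 40 numbered 2 without the filter on low counts, 1 with the GC trend removed and 6 in the batch-corrected log2 values, where 0 were called lower. Over all genes the same settings gave 750 of 13616, 520 of 9150 and 1793 of 10417 higher. In the batch-corrected values 25 of the other mitotic genes were lower, 29 higher and 0 called in either direction. All 10417 genes there gave 1988 (19.1%) lower, 1793 higher, 27 called lower and 2 called higher. DESeq2 gave 9 lower, 1 higher and 1 called higher among the other mitotic genes, against 589 (5.7%), 218 and 66 of 10329 genes. Recovered counts gave 1 called higher, against 160 of 9095. The cause was not tested.

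With a replicate block, 3 of the 40 (Anln, Foxm1 at an adjusted p of 0.0274, and Tacc3) and 13 of the others were higher, and the 5 that fell stayed lower. Over all 9150 genes, that block gave 852 higher and 1220 (13.3%) lower. Same-numbered libraries did not deviate together (r = 0.0106 across 9150 genes), so they share only a number. The 4 widest 95% intervals among the 40 were those of Cenpf, Bub1, Cdk1 and Nusap1.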
